A study of Mus musculus with 11 samples.

Results

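The S100 genes described here encode 8 small calcium-binding proteins, S100a8, S100a9, S100a1, S100a4, S100a6, S100a10, S100a11 and S100a13. They were chosen by gene name, and their probes were found through the RefSeq accession printed for each probe on the array. They are 8 of the 20972 gene symbols on the array and were read by 10 probes, with 2 probes each for S100a1 and S100a4. All 10 probes were well above background on all 11 arrays, so that no member was lost to the filter on dim probes.

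The samples were granulocyte-monocyte progenitors of C57BL/6 mice transformed with MLL-AF9 (L-GMP), a leukaemia fusion protein, and grown in RPMI with 20% serum and 10 ng/ml IL-3. Every culture, including those at 0 h, carried the genotype Jmjd2a/b/c f/f;Rosa26::CreERT2, in which the histone demethylase genes Kdm4a, Kdm4b and Kdm4c are floxed and a tamoxifen-activated Cre is expressed from the Rosa26 locus. Total RNA of 4 lines from leukaemic mice was hybridised to 1-colour arrays at 0 h without 4-hydroxytamoxifen (4 arrays) and after 48 h (4 arrays) and 96 h (3 arrays) in 500 nM of it. Untreated cells were sampled at 0 h only and no treated cells without floxed alleles were analysed here, so deletion, drug, Cre activity and time in culture cannot be told apart, and the p-values measure the spread between these arrays.

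S100 proteins are small EF-hand proteins that mostly form dimers and, on binding calcium, expose a surface that binds other proteins. S100a8 and S100a9 pair into calprotectin, an abundant protein of the neutrophil cytoplasm that withholds zinc and manganese from microbes and, once released, acts as an alarm signal. The other members are expressed in many cell types and act mainly inside cells, each with its own set of partners.

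All 8 genes lie on mouse chromosome 3. In the RefSeq annotation S100a8 and S100a9 are neighbours, as are S100a1 and S100a13, and S100a10 and S100a11, while S100a5 lies between S100a4 and S100a6. The promoters of the pair that forms calprotectin and of S100a4 and S100a6 are shown because these are the members with the widest spread at 0 h. Each window holds 250 bases before and 50 bases after the annotated start, on the strand of the gene, from the RefSeq promoter table of build GRCm38.p6, and capitals mark the letters GAGGAA or its reverse complement (the core of many PU.1 sites), TTGCNNAA (a C/EBP-type site) and TATAAA. The windows are chr3:90668821-90669120 (plus strand) for S100a8, chr3:90695672-90695971 (minus strand) for S100a9, chr3:90603520-90603819 (plus strand) for S100a4 and chr3:90612644-90612943 (plus strand) for S100a6.
S100a8: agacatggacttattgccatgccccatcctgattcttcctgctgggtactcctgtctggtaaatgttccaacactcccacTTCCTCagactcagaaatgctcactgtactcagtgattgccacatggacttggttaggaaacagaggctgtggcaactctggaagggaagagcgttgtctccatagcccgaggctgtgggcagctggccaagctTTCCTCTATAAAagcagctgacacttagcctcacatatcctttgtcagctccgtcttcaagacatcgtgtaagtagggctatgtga
S100a9: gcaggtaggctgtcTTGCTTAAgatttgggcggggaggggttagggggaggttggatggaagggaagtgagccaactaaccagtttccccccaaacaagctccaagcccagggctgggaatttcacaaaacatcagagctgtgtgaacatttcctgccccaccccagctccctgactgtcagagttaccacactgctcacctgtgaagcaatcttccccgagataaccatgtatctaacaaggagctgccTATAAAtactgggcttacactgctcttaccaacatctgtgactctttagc
S100a4: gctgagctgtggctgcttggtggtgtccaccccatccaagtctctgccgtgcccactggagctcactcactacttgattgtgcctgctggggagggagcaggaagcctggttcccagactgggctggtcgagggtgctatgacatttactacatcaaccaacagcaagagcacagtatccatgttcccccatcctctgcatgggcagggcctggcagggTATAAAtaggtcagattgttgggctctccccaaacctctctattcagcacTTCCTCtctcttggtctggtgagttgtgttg
S100a6: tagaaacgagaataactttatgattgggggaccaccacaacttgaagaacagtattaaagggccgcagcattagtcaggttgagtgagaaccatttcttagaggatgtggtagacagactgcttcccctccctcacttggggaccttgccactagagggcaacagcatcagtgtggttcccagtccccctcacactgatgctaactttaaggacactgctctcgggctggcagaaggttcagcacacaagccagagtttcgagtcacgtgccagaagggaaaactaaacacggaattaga

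Both strands of the windows were searched, 7 of the 8 members having one (not S100a10). S100a8 held the PU.1 core on the opposite strand from base 81 and from base 215 of the window, the second directly before its TATA match at base 221. S100a9 held a C/EBP-type match from base 15, and its TATA match from base 251 begins at the annotated start itself. In S100a4 the TATA match stood at base 220 and a PU.1 core followed from base 270. An AP-1 motif, spelled TGANTCA, was searched as well. The other motifs searched were a GATA motif with the letters AGATAA, present in S100a9 from base 221, and an E-box. The E-box searched reads CAGCTG, and S100a8 held it at 2 places, from bases 201 and 229. S100a11 held a PU.1 core, the AP-1 motif at 2 places and the GATA motif, while S100a1, S100a6 and S100a13 held none of the 6. Of all 32851 promoter windows in the table, 28.3% held the PU.1 core, 13.6% the TATA letters, 10.8% the C/EBP-type motif, 16.3% the E-box, 11.2% the GATA motif and 7.81% the AP-1 motif, so each of them is common. The windows of S100a1 and S100a13 overlap by 204 bases on opposite strands.

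Each signal is the log2 of the scanner's processed value relative to the 75th percentile of its own array, called the scaled log2 signal, so that 0 is the brightness of that percentile. The signal of one probe was not set against that of another, except in the summed signals of cell type markers, which follow their brightest probes. Differences come from a linear model with a moderated variance (limma) over all 11 arrays and 25079 genes or unnamed features, and a difference was called at a Benjamini-Hochberg adjusted p under 0.05. Between 50.2% and 75.8% of the spots of an array were well above background, with the 3 arrays at 96 h at 75.8%, 54.1% and 64.7%. The 96 h arrays were on a slide of their own, whereas the 0 h and 48 h arrays shared a slide, so that for every comparison with 96 h slide and time cannot be told apart. As a check of the labels, Kdm4a, Kdm4b and Kdm4c were lower at 48 h than at 0 h, with log2 differences of -1.59, -3.30 and -4.95, and lower at 96 h than at 0 h, with -1.20, -3.24 and -4.60 (adjusted p in limma of at most 0.00377), Kdm4c being well above background on 2 of the 4 arrays at 48 h. A second, dimmer Kdm4a probe gave -0.23 at 48 h and -1.46 at 96 h against 0 h, with adjusted p-values over all probes of 0.593 and 0.0223 in limma. It was well above background on 3 of the 4 arrays at 48 h and 2 of the 3 at 96 h. All 12 progenitor markers examined, among them Kit, Cd34 and Elane, were well above background on every array, and their summed linear signal was 996 to 1220 at 0 h, 1350 to 1400 at 48 h and 1260 to 1300 at 96 h. Most of that sum was Ctsg, at mean log2 signals of 9.62, 9.84 and 9.58. The median log2 difference of the 12 from 0 h was 0.23 at 48 h and 0.06 at 96 h, against 0.12 and 0.11 over all features. Members went both ways, from Mpo at 4.33 to Kit at -0.49 at 48 h.

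S100a8 rose at 96 h. S100a8 encodes the calprotectin subunit that is unstable without its partner. Its scaled log2 signal was 7.05, 5.54, 3.96 and 3.76 on the 4 arrays at 0 h, 7.17, 6.89, 5.46 and 5.59 at 48 h, and 8.54, 7.49 and 8.53 at 96 h. Every array at 96 h lay above every array at 48 h and at 0 h, while the 48 h and 0 h arrays overlapped. The first 0 h replicate was brighter than 3 of the 4 arrays at 48 h. At 96 h S100a8 averaged 8.19 ± 0.60 (SD, n = 3), against 5.08 ± 1.54 (SD, n = 4) at 0 h, a log2 difference of 3.11 (SE 0.77, 95% interval 1.41 to 4.82, 8.64-fold) with an adjusted p of 0.0344 in limma. Only 0.0678% of the genes tested had a larger log2 difference in that comparison. The call was close to the threshold: the adjusted p lay between 0.0665 and 0.099 without 0 h replicate 3 or 4 or without any one of the 96 h arrays, with log2 differences of 2.67 to 3.46. At 48 h the mean of 6.28 ± 0.88 (n = 4), against 5.08 at 0 h, gave a log2 difference of 1.20 (SE 0.71, 95% interval -0.38 to 2.78, adjusted p = 0.255 in limma), which did not pass the test.

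S100a9, the other calprotectin subunit, had its highest signals at 96 h too, but missed the threshold. It read 8.57, 6.79, 5.45 and 5.16 at 0 h, 8.44, 7.83, 6.61 and 6.64 at 48 h, and 9.30, 8.87 and 9.34 at 96 h. Every 96 h array was again brighter than every earlier one. The 48 h and 0 h arrays overlapped, and the first 0 h replicate was brighter than every 48 h array. The mean was 9.17 ± 0.26 (n = 3) at 96 h, against 6.49 ± 1.56 (n = 4) at 0 h, a log2 difference of 2.67 (SE 0.76, 95% interval 0.99 to 4.36), whose adjusted p of 0.0525 in limma missed the threshold. Leaving out 0 h replicate 1, the brightest of its group, gave 3.37 with an adjusted p of 0.0207 in limma. No other left-out array let S100a9 pass, and the difference ranged from 2.23 to 3.37 over the left-out arrays. At 48 h the difference from 0 h was 0.88 (SE 0.70, adjusted p = 0.394 in limma), and at 96 h that from 48 h was 1.79 (SE 0.76, adjusted p = 0.153 in limma).

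The arrays at 0 h differed widely in the pair. The SD of S100a8 exceeded that of 88.7% of the genes tested at 96 h, against 99% at 0 h, and that of S100a9 exceeded 63.2% at 96 h, against 99.1% at 0 h. The extremes of S100a8 lay 1.05 log2 units apart at 96 h, against 3.29 at 0 h. The difference between same-numbered arrays, matched by the number in the name of the deposited file, was smallest for number 1, whose 0 h signal was the highest and itself enters the difference. For S100a8 at 48 h against 0 h it was 0.12, 1.35, 1.51 and 1.82 for numbers 1 to 4, and at 96 h against 0 h it was 1.49, 3.54 and 4.77 for numbers 1, 3 and 4. For S100a9 at 96 h against 0 h the differences were 0.72, 3.42 and 4.18. With that number as a block in the model, S100a9 passed the test at 96 h against 0 h (2.80, adjusted p = 0.0241 in limma) and S100a8 passed it at 96 h against 48 h (2.09, adjusted p = 0.0411 in limma), while S100a9 at 96 h against 48 h did not (1.92, adjusted p = 0.063 in limma).

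**Figure D1:**
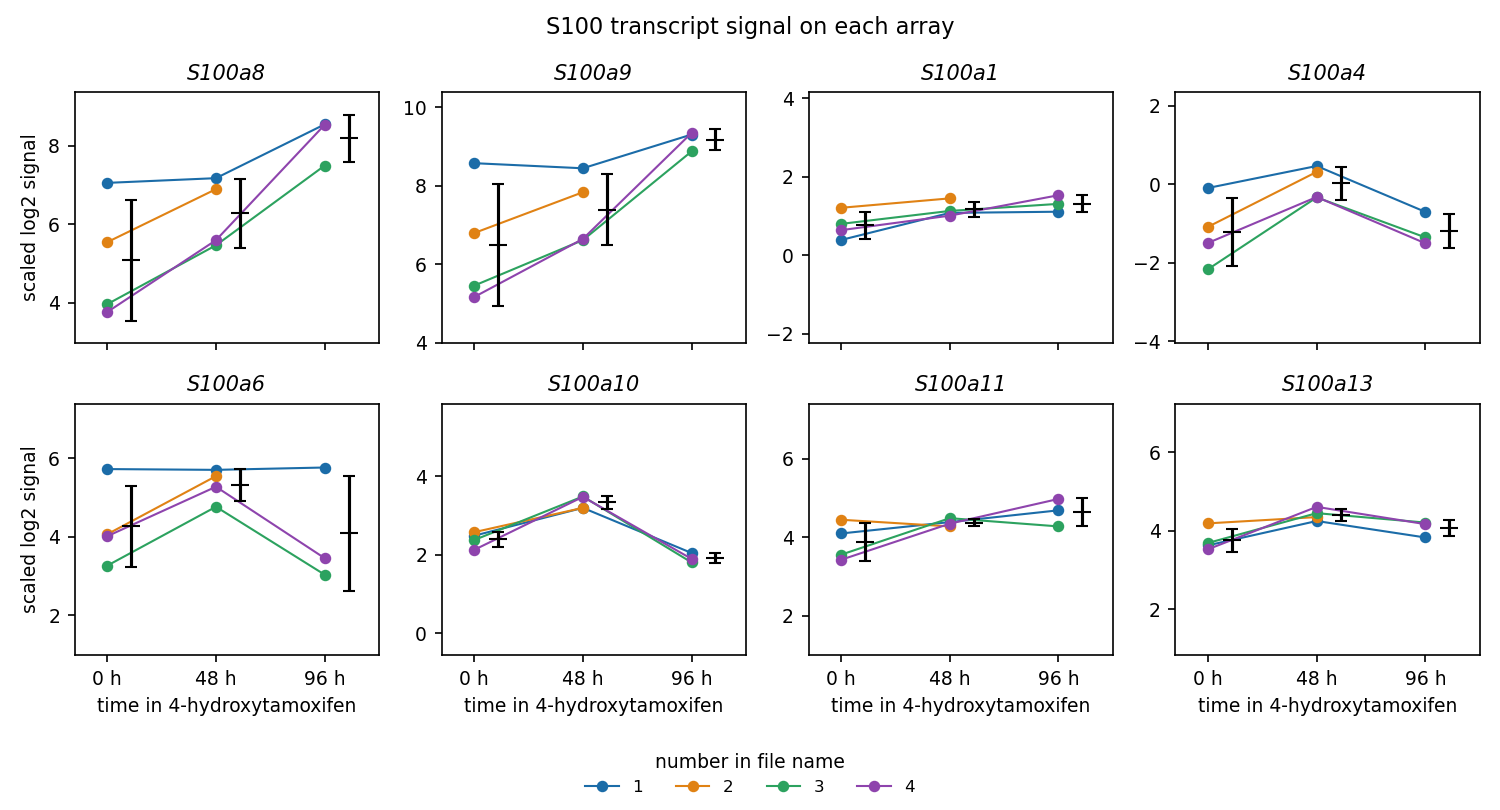
Scaled log2 signal (y axis) of each S100 gene on each array, by time in 4-hydroxytamoxifen (x axis). Points of 1 colour share the number in the deposited file name and are joined by a line, and the black bars beside them are group means ± SD. The S100a8 and S100a9 lines start far apart at 0 h and end close together at 96 h, S100a10 is highest at 48 h in every number, and S100a6 stays near 5.7 in number 1 at all times.

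S100a10 rose at 48 h and was lower again at 96 h. S100a10, or p11, is a member that does not bind calcium and works as the partner of annexin A2 at the plasma membrane. Its signal was 2.48, 2.57, 2.37 and 2.12 at 0 h, 3.19, 3.19, 3.48 and 3.47 at 48 h, and 2.04, 1.80 and 1.89 at 96 h. No 2 groups overlapped: all 48 h arrays were above all 0 h arrays, and all 96 h arrays were below both. At 48 h it averaged 3.33 ± 0.16 (n = 4), against 2.38 at 0 h, a log2 difference of 0.95 (SE 0.13, 1.93-fold, adjusted p = 0.00252 in limma). At 96 h it averaged 1.91 ± 0.12 (n = 3), against 3.33 at 48 h, and fell by 1.42 on the log2 scale (SE 0.14, 2.68-fold lower, adjusted p = 0.00219 in limma), a fall deeper than that of all but 0.618% of the genes tested. The rise at 48 h was present in each same-numbered pair, at 0.72, 0.62, 1.11 and 1.35, and both calls held in all 24 alternative settings. The log2 difference at 96 h against 0 h was -0.47 (SE 0.14, adjusted p = 0.0548 in limma), which missed the threshold. Without 0 h replicate 4 it was -0.56 with an adjusted p of 0.0482 in limma. It passed with no other array left out, and ranged from -0.56 to -0.41 over the left-out arrays.

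S100a13 also rose at 48 h. S100a13 takes part in the release of FGF1 and interleukin-1 alpha, proteins that leave cells without a signal peptide. Its signal was 3.63, 4.19, 3.69 and 3.53 at 0 h, 4.25, 4.35, 4.45 and 4.61 at 48 h, and 3.83, 4.21 and 4.17 at 96 h. The 48 h arrays lay above all the others, and the 96 h and 0 h arrays overlapped. The log2 difference at 48 h against 0 h was 0.66 (SE 0.16, 95% interval 0.30 to 1.01, 1.58-fold) with an adjusted p of 0.0204 in limma. That call was lost when single arrays were left out: without 0 h replicate 1, 3 or 4 or 48 h replicate 4 the adjusted p was 0.0535 to 0.0602 with log2 differences of 0.58 to 0.63. With each array's median as the reference level it was 0.283 (log2 difference 0.43). At 96 h the log2 difference was 0.31 against 0 h (adjusted p = 0.266 in limma) and -0.35 against 48 h (adjusted p = 0.216 in limma).

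S100a4, a partner of non-muscle myosin known for its part in cell motility, had its highest signals at 48 h. It read -0.10, -1.09, -2.17 and -1.50 at 0 h, 0.46, 0.31, -0.34 and -0.33 at 48 h, and -0.71, -1.36 and -1.51 at 96 h. The 96 h arrays were all below the 48 h arrays, and the first 0 h replicate reached into the range of the 48 h group. The log2 difference was 1.24 at 48 h against 0 h (SE 0.40, adjusted p = 0.0553 in limma) and -1.22 at 96 h against 48 h (SE 0.43, adjusted p = 0.097 in limma), and both missed the threshold. With the replicate number as a block both passed, at 1.24 (adjusted p = 0.0149 in limma) and -1.15 (adjusted p = 0.031 in limma). Leaving out 0 h replicate 1 also let both pass, at 1.61 (adjusted p = 0.0184 in limma) and -1.22 (adjusted p = 0.0425 in limma). No other left-out array did, and over the left-out arrays the differences were 0.92 to 1.61 and -1.46 to -1.06. The other S100a4 probe gave 1.90 at 48 h against 0 h and, for 96 h against 48 h, -2.45, with adjusted p-values over all probes of 0.0938 and 0.0719 in limma.

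S100a6, or calcyclin, which binds the ubiquitin ligase adaptor Cacybp, showed no difference that passed the test. Its signal was 5.73, 4.07, 3.27 and 4.02 at 0 h, 5.71, 5.55, 4.77 and 5.28 at 48 h, and 5.77, 3.04 and 3.46 at 96 h. The arrays numbered 1 were near 5.7 at all times, whereas numbers 3 and 4 were 1.49 and 1.26 higher at 48 h than at 0 h, and 1.73 and 1.82 lower at 96 h than at 48 h. The group differences were 1.05 at 48 h against 0 h (SE 0.63, adjusted p = 0.264 in limma) and -1.24 at 96 h against 48 h (SE 0.68, adjusted p = 0.27 in limma). At 96 h its SD of 1.47 was larger than that of 98.8% of the genes tested.

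S100a11 and S100a1 were somewhat brighter at later times, without passing the test. S100a11, which binds annexin A1, read 4.09, 4.44, 3.55 and 3.42 at 0 h, 4.38, 4.27, 4.48 and 4.34 at 48 h, and 4.68, 4.27 and 4.97 at 96 h. The groups overlapped, and the log2 difference was 0.76 at 96 h against 0 h (SE 0.24, adjusted p = 0.074 in limma) and 0.49 at 48 h against 0 h (SE 0.23, adjusted p = 0.152 in limma). Without 0 h replicate 2, the brightest of its group, the values were 0.95 (adjusted p = 0.0232 in limma) and 0.68 (adjusted p = 0.0392 in limma). With any other array left out neither passed, at differences down to 0.60 and 0.34. S100a1, best known from heart muscle, where it regulates calcium handling, read 0.39, 1.21, 0.80 and 0.64 at 0 h, 1.08, 1.45, 1.13 and 1.01 at 48 h, and 1.11, 1.31 and 1.53 at 96 h. Here 0 h replicate 2 again reached into the later groups, and the log2 differences from 0 h were 0.56 at 96 h (SE 0.19, adjusted p = 0.0929 in limma) and 0.41 at 48 h (SE 0.18, adjusted p = 0.133 in limma). S100a1 passed the test with the replicate number as a block, at 0.68 (adjusted p = 0.0215 in limma) for 96 h and 0.41 (adjusted p = 0.0429 in limma) for 48 h. It also passed without 0 h replicate 2, at 0.71 (adjusted p = 0.0275 in limma) and 0.56 (adjusted p = 0.033 in limma). With any other array left out it did not pass, at differences down to 0.43 and 0.29. Its second probe gave 0.75 at 96 h against 0 h with an adjusted p over all probes of 0.0408 in limma, so the 2 probes of S100a1 fell on opposite sides of the threshold.

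At 48 h against 0 h, 2 of the 8 S100 genes passed the test (25079 features were tested, of which 18.6% passed), both higher. The median log2 difference over all 8 was 0.92, against 0.12 over all features. Of the 8, 1 passed at 96 h against 0 h, higher (9.56% of all features passed), and the median was 0.43, against 0.11 over all features. Again 1 of 8 passed at 96 h against 48 h, lower (11.1% of all features passed), with a median of -0.10, against 0.03 over all features. Groups that did not overlap at all were seen for 2 of 8 genes at 48 h against 0 h (23.9% of all features), for 3 of 8 at 96 h against 0 h (25.1%) and for 5 of 8 at 96 h against 48 h (27.9%). With the replicate number as a block the counts of passing genes were 4 of 8 at 48 h against 0 h (21.4% of all features), 3 of 8 at 96 h against 0 h (14%) and 3 of 8 at 96 h against 48 h (12.2%).

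**Figure D2:**
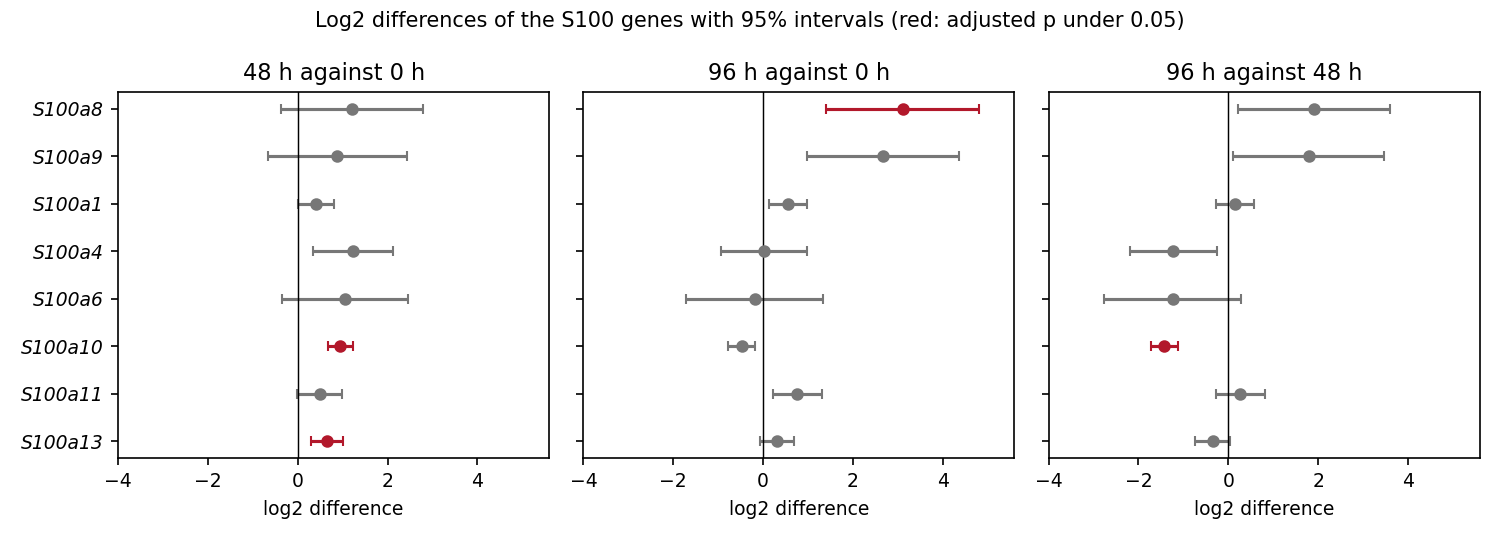
Log2 differences (x axis) of the 8 S100 genes (rows) in the 3 comparisons (panels), with 95% intervals from the model over 11 arrays. Red marks an adjusted p under 0.05, which S100a10 and S100a13 reached at 48 h against 0 h, S100a8 at 96 h against 0 h and S100a10 at 96 h against 48 h.

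The calprotectin pair and the other 6 members had differences of similar size at 48 h and unlike ones at 96 h. The following values are a description without a test, since the members were chosen with results of these data known. At 48 h against 0 h the mean log2 difference was 1.04 for the pair and 0.80 for the other members, which ranged from 0.41 to 1.24. It was 2.89 for the pair and 0.17 for the others at 96 h against 0 h, where the others' range of -0.47 to 0.76 lay wholly below both subunits. At 96 h against 48 h the values were 1.85 and -0.63, with the others between -1.42 and 0.27. The comparisons share arrays and are therefore not independent. The gap between the pair and the others at 48 h, 0.24, depended on single arrays and was -0.11 without 0 h replicate 4 and -0.06 without 48 h replicate 1, whereas at 96 h against 0 h it stayed between 2.38 and 3.27 whichever array was left out.

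**Figure D3:**
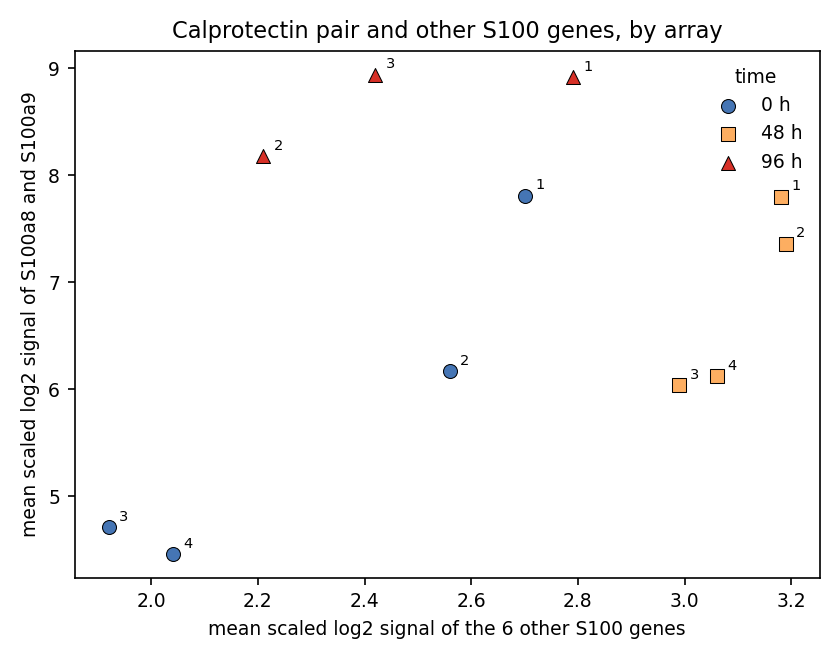
Mean scaled log2 signal of S100a8 and S100a9 (y axis) against that of the other 6 S100 genes (x axis), 1 point per array labelled with its replicate number. The 96 h arrays lie highest on the y axis, at 8.18 to 8.94, the 48 h arrays lie farthest right, at 2.99 to 3.19, and the 0 h arrays spread from 4.46 to 7.81 on the y axis.

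Between arrays the 2 subunits varied together. Over the 11 arrays, which share the 3 times and the 4 lines, Pearson's r between S100a8 and S100a9 was 0.99, and it was 0.98 after each group's mean was subtracted. Among 14993 named genes, S100a9 was the gene most like S100a8, followed by Ngp (r = 0.97), a protein of the secondary neutrophil granules, Ceacam10 (0.96), Hcls1 (0.95), a cytoskeletal adaptor of blood cells, and Paqr7 (0.94). For S100a9 the order was S100a8, Ngp (0.96), Stfa2 (0.94), Itgb2l (0.94) and Ssh1 (0.93). S100a4 varied with the pair more closely within groups than over all arrays together: its r with S100a8 was 0.88 after subtracting group means and 0.34 over the 11 arrays. S100a6 was close to S100a4, with an r of 0.87 over all arrays and 0.85 within groups. S100a10 showed r values of -0.25 and 0.21 with S100a8, and S100a11 showed 0.81 and 0.62.

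**Figure D4:**
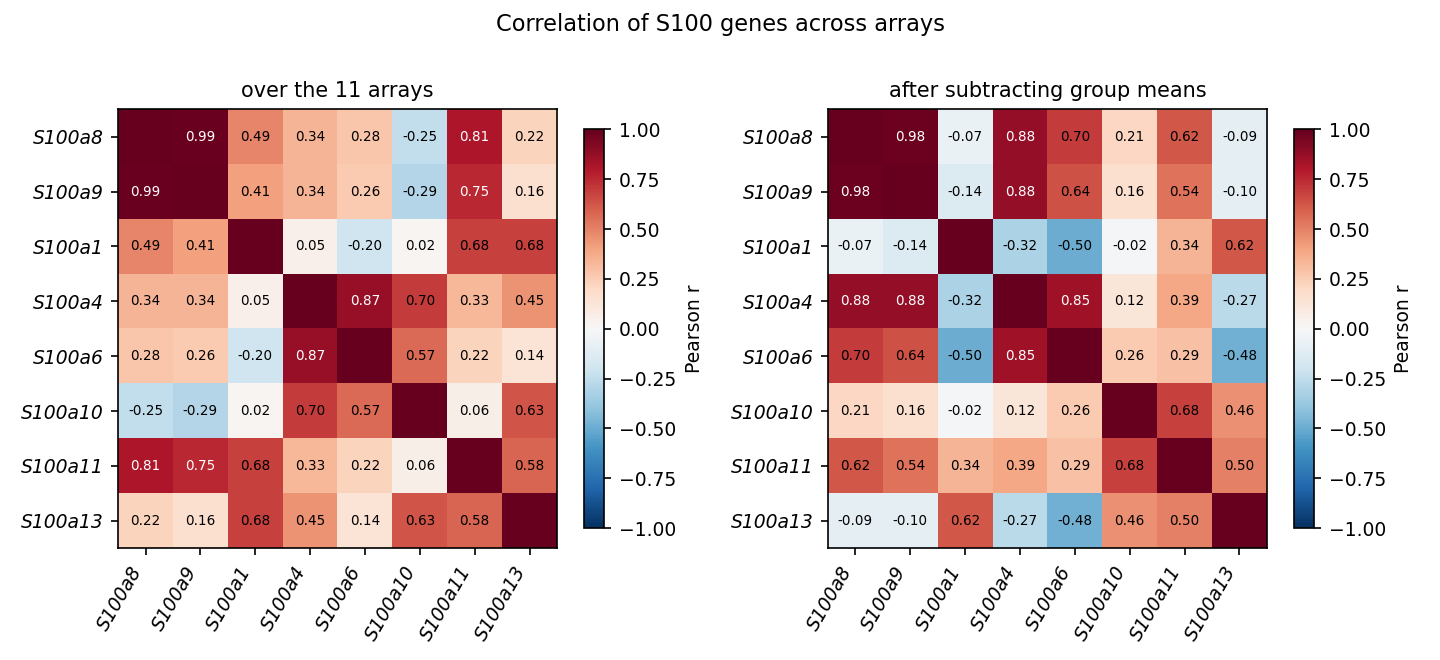
Pearson's r between the scaled log2 signals of the 8 S100 genes (both axes), over the 11 arrays (left) and after the mean of each time was subtracted (right). S100a8 and S100a9 have the highest r in both panels, 0.99 and 0.98, and S100a4 has an r of 0.88 with both subunits in the right panel against 0.34 in the left.

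Other S100 genes were less well measured. Of 8 further family members, 3 passed the filter on dim probes (S100a3, S100a5 and S100a16), while S100a7a, S100a14, S100b, S100g and S100z did not. S100a16 was the member of this list that passed the test, at 96 h against 0 h (9.56% of all features passed). Its log2 difference was 0.47 (SE 0.12, adjusted p = 0.043 in limma). The S100a16 call was lost under 14 of 24 alternatives, among them without any one of the 0 h or 96 h arrays or 48 h replicate 1, 3 or 4 (adjusted p of 0.0558 to 0.834 over the 14).

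Of 12 known binding partners of S100 proteins, 10 were tested, and 2 rose and 1 fell at 48 h against 0 h (18.6% of all features passed). Anxa1, the calcium-dependent membrane-binding partner of S100a11, averaged 1.92 ± 0.64 at 0 h (n = 4), 3.33 ± 0.67 at 48 h (n = 4) and 4.30 ± 0.66 at 96 h (n = 3). It rose by 2.37 at 96 h against 0 h (adjusted p = 0.0162 in limma; 0.0543 without 96 h replicate 1 and 0.054 without 96 h replicate 3) and by 1.41 at 48 h (adjusted p = 0.0422 in limma). The second call was lost under 11 of 24 alternatives, among them without 0 h replicate 1, 3 or 4, 48 h replicate 1, 2 or 4, or 96 h replicate 3 (adjusted p of 0.0512 to 0.109). With the block it also rose at 96 h against 48 h (1.23, adjusted p = 0.0201 in limma, against 0.97 and 0.193 without it). Ahnak, a very large scaffold that binds the S100a10 and annexin A2 complex, rose like S100a10 at 48 h and fell at 96 h: it rose by 1.46 at 48 h against 0 h (adjusted p = 0.0275 in limma) and fell by 2.31 at 96 h against 48 h (adjusted p = 0.0102 in limma). The Ahnak rise was lost under 7 of 24 alternatives (adjusted p of 0.0502 to 0.0919), among them without 0 h replicate 1, 2 or 3 or 48 h replicate 3 or 4, and its fall held in all 24. Ppfibp1, a liprin that binds S100a4, fell by 0.42 at 48 h against 0 h (adjusted p = 0.0212 in limma) and rose by 0.40 at 96 h against 48 h (adjusted p = 0.0455 in limma), calls lost under 6 and 15 of 24 alternatives (adjusted p of 0.0525 to 0.0602 and 0.0501 to 0.552). The first Ppfibp1 call was lost without 0 h replicate 3 or 4 or 48 h replicate 1 or 4, the second without 0 h replicate 1 or 4, 48 h replicate 1, 2 or 4, or any 96 h array. Anxa2, looked up after the values were seen because it is the partner of S100a10, had log2 differences of -0.04 at 48 h against 0 h (adjusted p = 0.908 in limma) and -0.64 at 96 h against 48 h (adjusted p = 0.0743 in limma), neither past the test. At 96 h against 0 h its log2 difference was -0.68 (adjusted p = 0.0649 in limma). It passed with the replicate number as a block (-0.70, adjusted p = 0.0449 in limma), without 0 h replicate 2 (-0.79, 0.04) or 96 h replicate 1 (-0.89, 0.0478), and in 3 further settings. The 96 h against 48 h difference passed in 2 settings.

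Among 10 genes for receptors and signal transducers of S100 proteins, 9 were tested and Tlr4 was the one that passed. It did so at 48 h and at 96 h against 0 h, where 18.6% and 9.56% of all features passed. Tlr4, the innate immune receptor that calprotectin binds, had a log2 difference of -1 at 48 h against 0 h (SE 0.13, adjusted p = 0.00221 in limma), a call that held in all 24 alternatives. It fell by 0.69 at 96 h against 0 h (SE 0.14, adjusted p = 0.0191 in limma), a call lost without 0 h replicate 4 or 96 h replicate 2 or 3 and in 2 further alternatives (adjusted p of 0.05 to 0.0658). Ager, which encodes the receptor RAGE, did not pass the filter on dim probes. With the replicate number as a block, 2 receptor genes rose and 1 fell at 48 h against 0 h (21.4% of all features passed). With the block 1 rose and 1 fell at 96 h against 0 h (14% of all features passed). The one that rose was Cd14, the co-receptor of Tlr4 (0.75, adjusted p = 0.0175 in limma, against 0.44 and 0.564 without the block).

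Of 10 transcription factor genes linked to the calprotectin genes, 3 fell at 48 h against 0 h (18.6% of all features passed), and the median log2 difference was -0.27, against 0.12 over all features. Klf5, a zinc finger factor, fell by 1.11 (adjusted p = 0.0105 in limma, held in all 24 alternatives). Hif1a, the oxygen-sensing factor, fell by 0.53 (adjusted p = 0.0191 in limma; 0.0516 and 0.0518 without 48 h replicate 1 or 4). Cebpb, a leucine zipper factor of myeloid cells, fell by 0.42 (adjusted p = 0.0201 in limma), a call lost without 0 h replicate 3 or 4 or 48 h replicate 4 and with no filter (0.0516 to 0.0593). Cebpb fell by 0.48 at 96 h against 0 h (adjusted p = 0.0283 in limma), a call lost under 9 of 24 alternatives, among them without 0 h replicate 1, 3 or 4 or any 96 h array (0.0537 to 0.0825). With the replicate number as a block, 1 factor rose and 3 fell at 48 h against 0 h (21.4% of all features passed). At 96 h against 48 h, 2 rose with the block (12.2% of all features passed). Stat3 rose at 96 h against 0 h with the block (0.48, adjusted p = 0.0241 in limma, against 0.37 and 0.171 without the block).

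Genes of the neutrophil granules were set beside the S100a8 rise. Of 12 secondary and tertiary granule genes, 5 rose at 96 h against 0 h (9.56% of all features passed), and the median log2 difference was 2.04, against 0.11 over all features. Ltf, lactoferrin, rose by 6.82 (adjusted p = 0.000998 in limma), Camp, the cathelicidin precursor, by 5.70 (adjusted p = 0.0024 in limma), Chil1, a chitinase-like protein, by 4.28 (adjusted p = 0.00174 in limma) and Cybb, the oxidase subunit gp91phox, by 2.66 (adjusted p = 0.0451 in limma, lost under 13 of 23 alternatives, among them without 0 h replicate 1, 3 or 4, 48 h replicate 1 or 3, or any 96 h array, at 0.0547 to 0.131). Chil1 and Cybb were well above background on all 3 arrays at 96 h, on 3 of the 4 at 48 h and on 2 of the 4 at 0 h. Their differences are thus set against signals partly at background. At 48 h against 0 h, 3 rose (18.6% of all features passed), namely Camp (2.5), Pglyrp1 (0.97) and Itgam (0.74). Their adjusted p-values in limma were 0.0159, 0.0103 and 0.00321. Between 96 h and 48 h, where 11.1% of all features passed, Ltf (6.29), Camp (3.21) and Chil1 (3.13) rose. Their adjusted p-values in limma were 0.00219, 0.0119 and 0.00412, and Itgam fell by 0.69 (adjusted p = 0.00815 in limma). The mean of all kept Itgam probes ended both Itgam calls and turned the sign of the second, and the first was also lost with each array's median as reference. Ngp, the gene after S100a9 most like S100a8, had log2 differences of 3.6 at 96 h against 0 h (adjusted p = 0.0512 in limma) and 1.98 at 48 h against 0 h (adjusted p = 0.162 in limma), and like S100a8 it passed at 96 h against 0 h with the block (3.67, adjusted p = 0.0193 in limma). With the block, 9 of the 12 rose from 0 h to 96 h, where 14% of all features passed. In the same model 5 rose from 0 h to 48 h, where 21.4% of all features passed. From 48 h to 96 h, 6 rose and 1, Itgam, fell with the block, where 12.2% of all features passed.

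Of 8 genes tested from a primary granule list, 4 rose at 48 h against 0 h (18.6% of all features passed). They were Mpo, myeloperoxidase (4.33), Plac8 (0.92), Gstm1 (0.70) and Srgn, the granule proteoglycan (0.44), with adjusted p-values in limma of 0.00199, 0.005, 0.023 and 0.00818. Plac8 and Gstm1 are on the list but do not encode granule proteins. Elane, Prtn3, Ctsg and Ctsc did not pass, with adjusted p-values in limma of 0.135, 0.0909, 0.157 and 0.363. With the block Elane and Prtn3 rose too (adjusted p = 0.029 and 0.0389 in limma). The Gstm1 call was lost without 0 h replicate 3 or 4 or 48 h replicate 1 and in 2 further settings (0.0509 to 0.25). The call of Plac8 was lost with the array median as reference (0.0856), and that of Srgn under 4 of the other scalings (0.0697 to 0.481). Mpo alone of the 8 passed at 96 h against 0 h (9.56% of all features passed), with a log2 difference of 5.18 (adjusted p = 0.00264 in limma). With the block 4 of the 8 passed in that comparison (14% of all features). Srgn fell by 0.32 at 96 h against 48 h (adjusted p = 0.0432 in limma), a call lost under 19 of 24 alternatives (0.0523 to 0.823), 10 of them left-out arrays (all but 0 h replicate 2), and reversed in sign under 2 of them.

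Markers of other cell types were set beside the S100a8 rise, and their part in it was not tested. The summed linear signal of 11 mature neutrophil markers, which share Ltf, Camp, Ngp and Mmp8 with the granule list, was 106 to 133 at 0 h, 182 to 243 at 48 h and 285 to 551 at 96 h. At 0 h and 48 h that sum was mostly Csf3r, at mean log2 signals of 6.39 and 7.04. At 96 h Camp was the brightest of the 11, at 7.52. Of the 11, 2 rose at 48 h against 0 h (18.6% of all features passed) and 3 at 96 h against 0 h (9.56%). Ly6g had no matched probe, and Retnlg, called higher at 96 h against 0 h (4.45, adjusted p = 0.0121 in limma), was not above background on every array. The sum of 9 monocyte and macrophage markers was 23.2 to 46.1 at 0 h, 29.5 to 38.4 at 48 h and 24.4 to 39.9 at 96 h, ranges that overlapped. That sum mostly followed Adgre1, Csf1r and Lyz2, and 4 of the 9 (Cx3cr1, Fcgr1, C1qa and Ms4a7) were not above background on every array. The overlap therefore does not show that the share of such cells was unchanged. Of these 9, Fcgr1, a high-affinity Fc receptor, was called at 48 h against 0 h (18.6% of all features passed). Fcgr1 had a log2 difference of -3.71 (adjusted p = 0.00736 in limma). Its probe was well above background on 1 of the 4 arrays at 48 h and on all 4 at 0 h. Lyz2, lysozyme, was called higher at 96 h against 0 h with the block (1.34, adjusted p = 0.0212 in limma) and not without it (1.15, 0.229). At 0, 48 and 96 h in turn, megakaryocyte markers (6 genes) summed to 0.946 to 2.21, 2.81 to 4.43 and 2.73 to 3.75, and mast cell and basophil markers (5) to 5.4 to 8.9, 5.18 to 10.2 and 3.71 to 5. Lymphoid markers (5) summed to 10.6 to 12, 11.7 to 16 and 9.24 to 13.1, stromal markers (7) to 15.7 to 18.1, 19.4 to 26.9 and 10.5 to 13.5, and erythroid markers (5) to 0.645 to 0.766, 0.747 to 1.11 and 0.802 to 0.856. The stromal sum was mostly Lepr, whose mean log2 signal was 3.78, 4.39 and 3.27 in turn. Lepr was called higher at 48 h against 0 h and lower at 96 h against 48 h. Both Lepr calls were lost with the mean of kept probes (adjusted p = 0.614 and 0.385 in limma). Pdgfrb had a log2 difference of -1 at 48 h against 0 h (adjusted p = 0.0535 in limma). Col1a1, Col3a1 and Cxcl12 were not above background on every array. Of the 6 megakaryocyte markers Gp9 and Vwf were called higher at 48 h against 0 h (18.6% of all features passed). So were Epor of the 5 erythroid markers and Mcpt8 and Tpsb2 of the 5 mast cell and basophil markers. At 96 h against 0 h Gp9 and Epor were called higher and Gata2 and Cd3e lower (9.56% of all features passed). The Gata2 and Cd3e calls were lost under 9 and 16 of 24 alternatives, and each Epor call under 4. In these bulk cultures fewer cells of a type and less RNA per cell cannot be told apart. On the shared slide of 48 h and 0 h, the S100a10 difference was 0.99 in slide row 1 and 0.90 in row 2. That of S100a13 was 0.49 and 0.82, and that of S100a8 was 1.67 and 0.74. Row 1 held numbers 1 and 3 at 48 h and numbers 2 and 4 at 0 h, and row 2 the reverse. Row and array number therefore cannot be told apart in these differences.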

How the data were processed

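Total RNA was labelled with Cy3 and hybridised to 1-colour Agilent arrays, 1 sample per array, per the labels' protocols. The scanner files hold processed signal intensity made by Feature Extraction 11.0.1.1 on a design annotated to mm9, per the file headers, and background-subtracted intensities as deposited. They also hold flags for outlier, saturated and above-background spots, per the file headers. In the deposited series matrix, the log2 values correlated at 0.9999838 with normexp background correction followed by quantile normalization of the same arrays, with column medians of 6.17 to 6.19. The submitters' processing notes name limma. No aligner applies to arrays.

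Here log2 of the processed signal was taken and each array's 75th percentile over the 59305 spots that were not controls was subtracted. Between 125 and 194 outlier spots per array were left out, and no such spot was saturated. Spots of a probe were averaged, a probe entered if its flag stood above background on 3 or more of the 11 arrays (34270 probes), and the brightest kept probe stood for its gene, giving 25079 features, of which 14996 had a symbol. Features were tested with limma 3.58.1 in R 4.3.3 over all arrays in 3 groups (8 residual degrees of freedom), with Benjamini-Hochberg adjustment over all features. The number of arrays limits the precision. The script was tested on simulated data. Files were read with jsonlite 2.0.0 and figures drawn with Python 3.11.15, pandas 2.3.3, numpy 2.4.6 and matplotlib 3.10.9.

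The labels give 4 lines, but do not say which number is which line. Deviations from the group means correlated between same-numbered arrays at 0.14 to 0.28 (48 h and 0 h), 0.12 to 0.36 (96 h and 0 h) and 0.23 to 0.30 (96 h and 48 h) when matched by the number in the deposited file name, in which the 96 h replicates 1, 2 and 3 carry the numbers 1, 3 and 4. Matched by title number, 96 h replicates 2 and 3 gave -0.04 and 0.00 with 0 h, and -0.01 and -0.04 with 48 h. The file-name number was therefore used where a replicate block is named.

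All 8 members are named with values. From the lists of other S100 genes, binding partners, receptors, transcription factors and granule genes, genes past the threshold are named, at most the 4 with the largest absolute log2 difference per list and comparison, and the 5 genes most like S100a8 and like S100a9 by Pearson's r. The cell type marker lists fall outside this rule. The members singled out from them (among them Fcgr1, Lyz2, Retnlg, Ctsg, Csf3r, Lepr and Pdgfrb) were chosen after their values were seen. So were Anxa2, Cd14, Stat3 and the genes of the primary granule list that did not pass. The members and lists were chosen with earlier results of these data known, so no list's result is independent support. Alternatives were other scalings and normalizations, other filters on dim probes, the mean of kept probes, replicate blocks, slide row, array weights, fits on 2 groups and leaving out each array.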

Additional observations from a re-analysis of the deposited data

How the results depend on the processing

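Over 24 alternatives, both S100a10 calls held, with adjusted p-values in limma of at most 0.0245 for the rise at 48 h and 0.0188 for the fall between 48 h and 96 h. The S100a8 call at 96 h against 0 h was lost in 8 and the S100a13 call at 48 h against 0 h in 5, and S100a9 at 96 h against 0 h passed in 9. For S100a8 the settings besides left-out arrays were no filter on dim probes (adjusted p = 0.0645 in limma), slide row as a term (0.0511) and only the 2 groups compared (0.0778). For S100a9 they gave 2.29 with the array median as reference (adjusted p = 0.0451 in limma), 2.92 with quantile normalization (0.0472), 2.92 with normexp (0.0252) 2.89 in the deposited table (0.0251), 2.67 with probes above background on all arrays (0.0312), 2.33 with the title block (0.047), 2.80 with the file-name block (0.0241) and 3.34 with array weights (0.0162). The cause was not tested.

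The number of S100 genes called at 48 h against 0 h (2) was 1 with each array's median as reference, 4 with the replicate block by file-name number, 5 with array weights and 1 to 4 with an array left out. At 96 h against 0 h (1) it was 3 with the median as reference, 2 with quantile normalization, with normexp and quantile normalization, in the deposited table and with the replicate block by title number, 3 with the replicate block by file-name number, 4 when probes had to be above background on all arrays and with array weights, and 0 to 3 with an array left out. It was 0 with no filter on dim probes, with slide row as a term and with only the 2 groups compared, where 5 of the 8 genes had an unadjusted p in limma under 0.05 each time. For 96 h against 48 h (1) it was 2 with the title block and with only the 2 groups compared, 3 with the file-name block and 1 to 2 with an array left out.

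All features called at 48 h against 0 h (4657) were 2355 with the median as reference, 2652 with no filter, 8086 with array weights and 2447 to 5431 with an array left out. For 96 h against 0 h (2397) they were 910 with no filter, 1484 with the title block, 4791 with array weights, 435 with only the 2 groups compared and 702 to 3293 with an array left out. For 96 h against 48 h (2789) they were 920 with the median as reference, 1367 with no filter, 1600 with the title block and 988 to 2970 with an array left out. The share of calls that were higher was 56.8%, 64.6% and 46.5% in the 3 comparisons, 18%, 9.03% and 17.2% with the median as reference and 45.6%, 45.7% and 46% with quantile normalization. The median log2 difference of all features moved with it, to -0.10 at 48 h and -0.28 at 96 h against 0 h with the median as reference, from 0.12 and 0.11.

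The calprotectin pair's lead over the other members at 48 h against 0 h was -0.11 to 0.79 with an array left out. Signs turned for small differences: with the median as reference S100a1 at 96 h against 48 h was -0.02, S100a13 at 96 h against 0 h was -0.08 and S100a4 at 96 h against 0 h was -0.36. S100a4 at 96 h against 0 h (0.02) was also -0.08 with quantile normalization, -0.07 with normexp and in the deposited table, -0.26 with the mean of kept probes, -0.08 with the title block, 0 with slide row and -0.29 to 0.40 with an array left out. S100a6 at 96 h against 0 h (-0.18) was 0.07 with array weights and -1.03 to 0.34 with an array left out. Brightness over background limited no S100 gene of the 8.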
